A study of Homo sapiens with 6 samples.

Results

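The 10 genes described here encode 4 inhibitors of matrix metalloproteinases (TIMP1, TIMP2, TIMP3 and RECK) and 6 matrix metalloproteinases (the secreted MMP1 and MMP2 and the membrane-bound MMP14, MMP15, MMP16 and MMP17). They are a list of gene names drawn up with earlier results of these data known. All 10 were found by GENCODE symbol among the 60675 genes of the count table, and all 10 were among the 16353 genes with enough counts to test. Transcripts were measured by RNA-seq in 3 A2058 wells that received 0.1 mM vitamin C over 48 h, renewed daily with the medium, and in 3 control wells whose medium held none. A2058 is a cell line from a metastatic melanoma, and every well holds cultures of this same line. The treatment label of the samples gives 100 µM, while 50 µM sodium ascorbate stands in their protocol text, and the labelled dose is used here.

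Matrix metalloproteinases are zinc enzymes that cut collagens and other proteins of the extracellular matrix (ECM). They are made as inactive precursors. MMP14 at the cell surface, with TIMP2 as a bridge, activates the MMP2 precursor, and several convertases and serine proteases activate others. TIMPs block the active site, and TIMP3, unlike the other TIMPs, binds to the matrix and also inhibits several ADAM and ADAMTS proteases. In melanoma, these enzymes are known for their part in invasion through collagen and basement membrane.

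Library totals were 20944956 to 32549362 counts in vitamin C wells and 16248869 to 41884588 counts in control wells. Vitamin C replicate 3 lay apart from vitamin C replicates 1 and 2 on the second principal component (-22.5 against 17.5 and 14.5), and control replicate 3 stood at -16.1 against 9.81 and -3.14 for control replicates 1 and 2. The first principal component (42.6% of the variance) split the groups, with control wells at 17.9 to 24.6. Vitamin C replicate 3 lay apart there too, at -32.5 against -14.3 and -15.3 for vitamin C replicates 1 and 2. Mitochondrial genes took 0.476% to 0.573% of counts in vitamin C wells and 0.612% to 0.744% in control wells, with no overlap. All 10 melanoma and melanocyte markers, among them SOX10 and MITF, had enough counts to test, with a sum of 2391 to 2496 CPM (counts scaled to a common library size) in vitamin C wells and 2562 to 2674 CPM in control wells. The largest part of that sum is DCT, which fell (1234 CPM in vitamin C wells and 1515 CPM in control wells), while MLANA (15.4 CPM in vitamin C wells and 1.54 CPM in control wells), PMEL and TYR rose. Of 10 fibroblast markers, 5 were under 1 CPM, TWIST2 among them at 0. The 10 summed to 204 to 214 CPM in vitamin C wells and 167 to 177 CPM in control wells, most of it PRRX1. Of 8 endothelial markers, 7 were under 1 CPM, CLDN5 among them at 0. The exception was PECAM1 (3.39 CPM in vitamin C wells and 1.11 CPM in control wells). The 8 summed to 5.21 to 6.25 CPM in vitamin C wells and 2.12 to 2.42 CPM in control wells. Leukocyte markers summed to 6.93 to 7.30 CPM in vitamin C wells and 8.81 to 10.3 CPM in control wells, most of it LYZ. Of these 10 markers, 9 were under 1 CPM, AIF1 among them at 0. Epithelial markers summed to 70.8 to 72.2 CPM in vitamin C wells and 77.0 to 83.3 CPM in control wells. The part of these marker shifts and of the mitochondrial share in the results was not tested. Fewer cells with a transcript and less of it per cell cannot be told apart in these bulk samples.

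MMP1, the interstitial collagenase, was far above the other members per length of transcript. Levels between genes were compared as CPM per kilobase (kb) of exon. MMP1 averaged 1429 ± 50.8 CPM per kb in vitamin C wells and 1319 ± 36.9 CPM per kb in control wells (SD, n = 3 wells each). It made up 90.8% to 91.0% of the summed levels of the 6 metalloproteinases in vitamin C wells and 91.2% to 91.4% in control wells. In vitamin C wells the order below MMP1 was TIMP3 (90.9 CPM per kb), MMP14 (81.6), MMP16 (40.9), TIMP2 (30.3), TIMP1 (15.4), MMP2 (13.4), MMP17 (4.17), MMP15 (3.17) and RECK (1.79). In control wells it was MMP14 (69.5 CPM per kb), TIMP3 (64.8), MMP16 (36.2), TIMP2 (29.3), TIMP1 (16.1), MMP2 (11.3), MMP15 (4.25), MMP17 (4.01) and RECK (1.62). Neighbors in this order had libraries that overlapped for TIMP3 and MMP14 in vitamin C wells and for MMP15 and MMP17 in control wells, and for no other pair of neighbors. When the length of the longest transcript was used in place of all exons, MMP14 lay above TIMP3 (97.6 and 90.9 CPM per kb) and TIMP2 above MMP16 (46.7 and 42.9 CPM per kb) in vitamin C wells. In control wells, TIMP2 then lay above MMP16 (45.1 and 37.9 CPM per kb) and MMP17 above MMP15 (6.65 and 4.42 CPM per kb). By that length MMP17 lay above MMP15 in both groups.

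**Figure D1:**
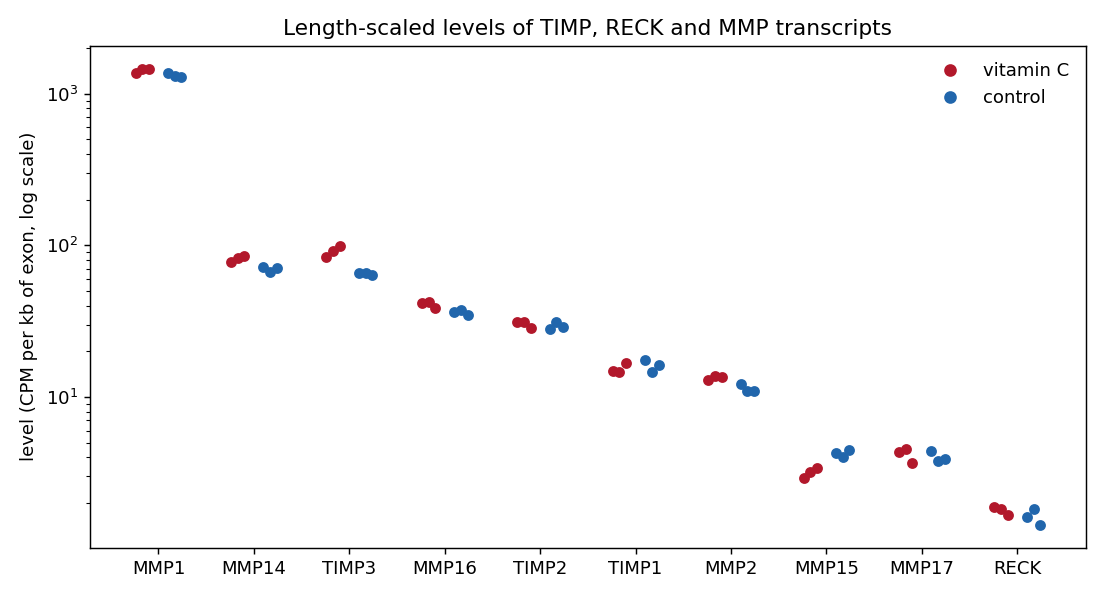
Length-scaled levels of the 10 transcripts in each library (CPM per kb of exon, log scale), ordered by their mean in control wells. Each point is 1 library, vitamin C in red at the left and control in blue at the right of each gene. MMP1 lies at 1292 or above in all 6 libraries and RECK below 2.

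Of the 10 members, 4 rose with vitamin C (TIMP3, MMP2, MMP14 and MMP16), MMP15 fell, and 5 did not pass the test. A gene was called at an adjusted p under 0.05 in edgeR's quasi-likelihood test, a rule that called 11.2% of all genes tested (6.09% higher and 5.09% lower). DESeq2 called the same 5 members in the same directions, and 9.88% of all genes tested were called by both tools in the same direction. The vitamin C and control wells did not overlap in CPM for 6 members (5 higher and 1 lower), a state found in 30.6% of all genes tested (15.6% higher and 14.9% lower). The median log2 fold change of the members was 0.12, against -0.00 for all genes tested. The changes were small: the median absolute log2 fold change of all called genes was 0.34, and TIMP3 and MMP15 alone among the members exceeded it. Without vitamin C replicate 3, the library that lay apart, 5 members were called in the same directions. The number of members called was 3 without vitamin C replicate 2, 2 without control replicate 2 and 3 without control replicate 3.

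**Figure D2:**
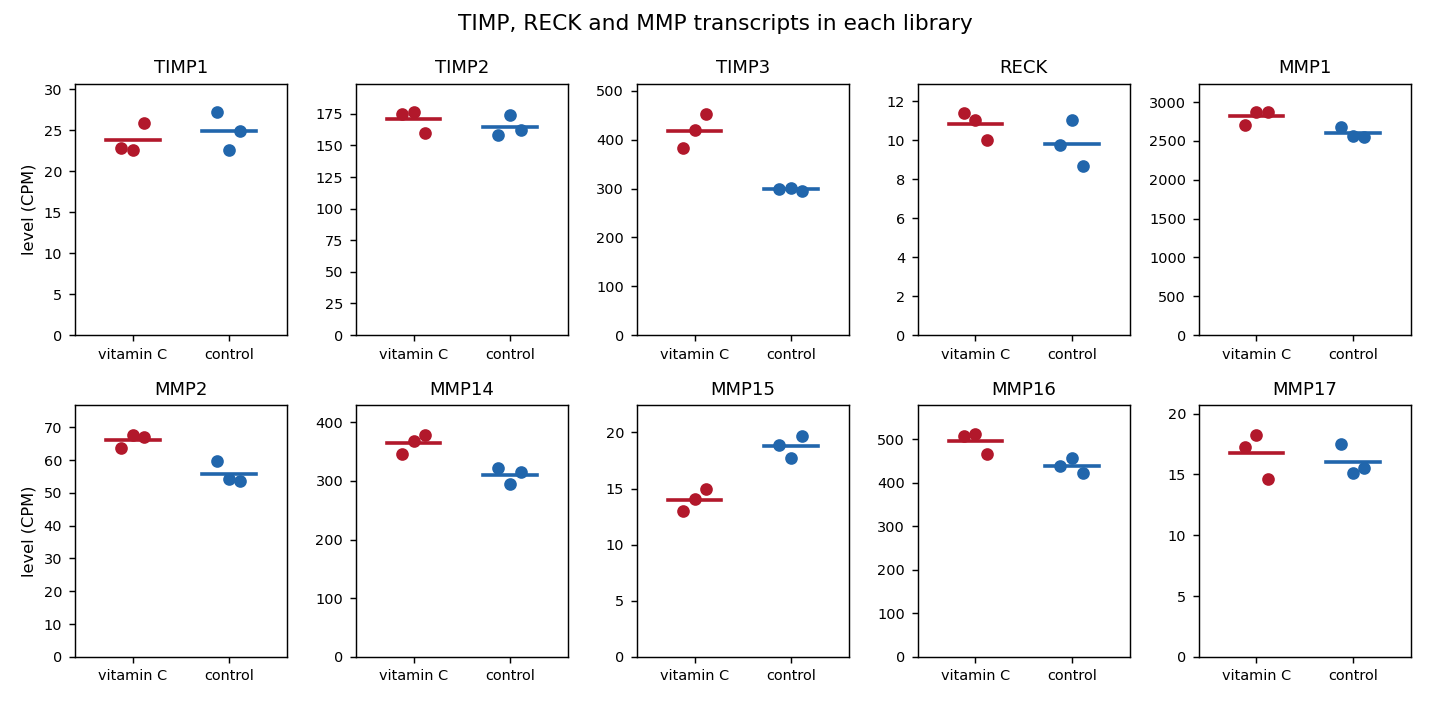
Level of each of the 10 transcripts in each library (CPM, axes from 0). Points are single libraries and lines the mean of 3, vitamin C in red at the left and control in blue at the right of each panel. The groups lie apart for TIMP3, MMP1, MMP2, MMP14, MMP15 and MMP16 and overlap for TIMP1, TIMP2, RECK and MMP17.

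For the members with the firmest rises and the fall, the sequence before the gene is given where it could be matched. It shows some of the letters that the motif counts rest on. Of the 10 members, 5 had an entry among the RefSeq promoters (GRCh38.p14). Below are the bases of that window that lie before the first annotated transcript start of TIMP3 (chr22:32801455-32801700, plus strand, inside the span of SYN3), MMP14 (chr14:22836335-22836556, plus strand) and MMP15 (chr16:58025504-58025565, plus strand). Capitals mark the GC box, GGGCGG on either strand.
TIMP3: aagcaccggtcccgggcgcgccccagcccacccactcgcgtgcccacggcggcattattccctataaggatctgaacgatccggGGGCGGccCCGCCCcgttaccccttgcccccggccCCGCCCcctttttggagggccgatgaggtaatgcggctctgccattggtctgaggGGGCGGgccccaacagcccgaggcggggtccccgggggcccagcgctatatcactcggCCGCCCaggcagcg
MMP14: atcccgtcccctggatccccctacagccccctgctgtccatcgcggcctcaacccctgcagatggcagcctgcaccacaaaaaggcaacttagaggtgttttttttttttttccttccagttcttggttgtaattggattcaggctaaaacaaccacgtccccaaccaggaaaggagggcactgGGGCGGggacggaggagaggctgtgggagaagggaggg
MMP15: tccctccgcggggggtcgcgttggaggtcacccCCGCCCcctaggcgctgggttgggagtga
In the full window of 250 bases before the RefSeq start, TIMP3 held 5 GC boxes and 26 CG pairs, MMP15 held 5 and 31, RECK 3 and 12, TIMP1 2 and 12, and MMP14 1 and 7. TIMP3, which rose, and MMP15, which fell, were thus alike in this count. Most of the MMP15 window lies past its first annotated start and is not printed. The 62 printed bases hold 1 GC box, 6 CG pairs and 0 CCAAT matches. The RECK window (36036663 to 36036912) lies wholly past the annotated start of RECK at 36036433. Part of the TIMP1 window (47582186 to 47582435) lies past its annotated start at 47582313. A GC box is found in 42.6% of 35116 RefSeq promoters, and 80.4% of them had fewer CG pairs than TIMP3, 89.1% fewer than MMP15 and 41.1% fewer than MMP14. The TATA box TATAAA (10.7% of promoters, either strand) and the AP-1 site TGAGTCA (4.2%, either strand) had no match in these 5 windows, and CCAAT (32% of promoters, either strand) had 1 match each in TIMP3, MMP14 and MMP15. These matches are descriptions of letters and not of factor binding.

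TIMP3 was the only inhibitor to rise. Its level was 383, 420.5 and 452 CPM in vitamin C replicates 1, 2 and 3, against 299.9, 301 and 295 CPM in control replicates 1, 2 and 3. Every vitamin C well lay above every control well, and the vitamin C wells were spread more widely than the control wells. The log2 fold change was 0.49 ± 0.0551 (SE, 95% confidence interval 0.37 to 0.61, edgeR adjusted p = 8.8e-05), a 1.402-fold rise. TIMP3 was singled out in the study of these same wells, so its call is no independent evidence. It stayed called in all 15 alternative fits, with a log2 fold change of 0.43 to 0.55. TIMP3 lies on chromosome 22 (32801701 to 32863043, plus strand) wholly inside the span of SYN3, a synapsin gene of the opposite strand, with 0% of its exon bases shared. SYN3 had 41 counts over the vitamin C wells and 66 over the control wells.

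TIMP1 and TIMP2, the soluble inhibitors, overlapped between groups. TIMP1 was at 22.85, 22.6 and 25.9 CPM in vitamin C wells, against 27.2, 22.6 and 24.9 CPM in control wells, a log2 fold change of -0.07 (95% confidence interval -0.25 to 0.11, edgeR adjusted p = 0.64). TIMP2, which also serves in the activation of MMP2, was at 175, 177 and 160.1 CPM in vitamin C wells, against 158, 174 and 162 CPM in control wells, a log2 fold change of 0.05 (95% confidence interval -0.07 to 0.17, edgeR adjusted p = 0.61). These intervals lie below the point estimate of TIMP3. RECK, a membrane-anchored glycoprotein that restrains several metalloproteinases, was the lowest member, with 11.4, 11.03 and 10.02 CPM in vitamin C wells, against 9.75, 11.02 and 8.66 CPM in control wells. Its log2 fold change was 0.13 (95% confidence interval -0.09 to 0.36, edgeR adjusted p = 0.47). TIMP2 shares 3.52% of its exon bases with CEP295NL on the same strand (log2 fold change -0.00, with 60 counts over vitamin C wells and 61 over control wells).

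TIMP3 took a larger part of the TIMP transcripts in vitamin C wells. Of the summed length-scaled levels of TIMP1, TIMP2 and TIMP3, TIMP3 made up 64.5%, 66.5% and 68.5% in vitamin C replicates 1, 2 and 3, against 58.8%, 58.9% and 58.8% in control replicates 1, 2 and 3. The sum itself was 129, 137 and 143 CPM per kb in vitamin C wells and 111, 111 and 109 CPM per kb in control wells. These shares and sums depend on the length used. By the longest transcript, TIMP3, TIMP2 and TIMP1 averaged 90.9, 46.7 and 21.7 CPM per kb in vitamin C wells. In control wells they averaged 64.85, 45.1 and 22.7 CPM per kb. By that length TIMP3 took a smaller part in both groups. Ratios of counts within a library do not depend on library scaling. The log2 ratio of TIMP3 to TIMP1 was 4.14 ± 0.0739 in vitamin C wells and 3.59 ± 0.136 in control wells (SD, n = 3 wells each). That of TIMP3 to TIMP2 was 1.29 ± 0.186 in vitamin C wells and 0.86 ± 0.0682 in control wells (SD, n = 3 wells each). The differences were 0.55 and 0.44, with no overlap between groups (exact permutation p = 0.1 each, two-sided, the smallest that 3 against 3 wells can give, and 0.2 adjusted over 6 ratios).

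The secreted gelatinase MMP2 rose slightly. Its level was 63.55, 67.8 and 67.0 CPM in vitamin C wells, against 59.65, 54.2 and 53.8 CPM in control wells. No vitamin C well lay as low as any control well. The log2 fold change was 0.24 ± 0.0589 (SE, 95% confidence interval 0.11 to 0.37, edgeR adjusted p = 0.019). This call did not hold without vitamin C replicate 2 (adjusted p = 0.082), control replicate 2 (0.099) or control replicate 3 (0.091), and the adjusted p ran from 0.0054 to 0.099 over 15 edgeR, DESeq2 and limma alternatives. MMP1 was at 2700, 2871 and 2874 CPM in vitamin C wells, against 2681, 2568 and 2545 CPM in control wells. All 3 vitamin C wells were above the control wells, the nearest by 19 CPM, and the log2 fold change of 0.12 did not pass the test (95% confidence interval 0.03 to 0.21 before adjustment, edgeR adjusted p = 0.093). It was 0.145 and passed without vitamin C replicate 1 (edgeR adjusted p = 0.043, over a range of 0.043 to 0.29 for the alternatives). WTAPP1, a pseudogene of the opposite strand, covers MMP1 and shares 7.61% of its exon bases, with 751 counts over vitamin C wells and 617 over control wells.

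Among the membrane-type metalloproteinases, MMP14 and MMP16 rose and MMP15 fell. MMP14, a collagenase of the cell surface, was at 346, 368 and 379 CPM in vitamin C wells, against 321, 295.5 and 314.5 CPM in control wells. Its groups did not overlap, and the log2 fold change was 0.23 ± 0.0491 (SE, 95% confidence interval 0.12 to 0.34, edgeR adjusted p = 0.0086). Without control replicate 2 it was 0.20 and not called (edgeR adjusted p = 0.063, over a range of 0.00025 to 0.063 for the alternatives). MMP15, a close relative, was at 12.99, 14.1 and 15.0 CPM in vitamin C wells, against 18.9, 17.8 and 19.7 CPM in control wells. Its log2 fold change was -0.42 ± 0.0816 (SE, 95% confidence interval -0.60 to -0.24, edgeR adjusted p = 0.0047), and it was called in all 15 alternatives, with -0.46 to -0.37. MMP15 was the member with the largest fall, yet its level was low: per kb of exon, MMP14 stood at 81.6 CPM against 3.17 CPM for MMP15 in vitamin C wells.

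MMP16 was at 507, 511.5 and 467 CPM in vitamin C wells, against 438, 456 and 422 CPM in control wells, which did not overlap. The log2 fold change was 0.18 ± 0.0486 (SE, 95% confidence interval 0.07 to 0.28, edgeR adjusted p = 0.034). This is the least firm of the 5 calls. It held when vitamin C replicate 3 was left out and not without vitamin C replicate 1 (adjusted p = 0.084), vitamin C replicate 2 (0.12), control replicate 1 (0.10), control replicate 2 (0.058) or control replicate 3 (0.16), over a range of 0.0015 to 0.16 for the edgeR, DESeq2 and limma alternatives. MMP17, a membrane-type enzyme held by a lipid anchor, was at 17.3, 18.3 and 14.6 CPM in vitamin C wells, against 17.5, 15.1 and 15.5 CPM in control wells. Its groups overlapped, with a log2 fold change of 0.06 (95% confidence interval -0.15 to 0.26, edgeR adjusted p = 0.76).

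**Figure D3:**
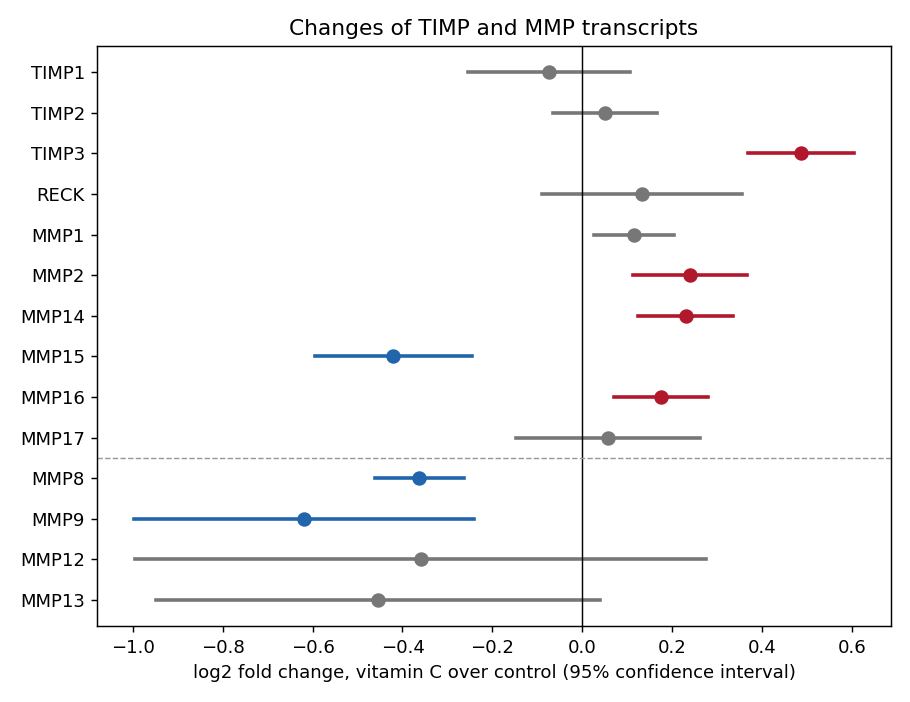
Change with vitamin C against control on the log2 scale, with its 95% confidence interval (bars, not adjusted for the number of genes) for the 10 members above the dashed line and the 4 other MMP genes with enough counts below it. Red genes were called higher, blue genes lower, and gray genes did not pass the adjusted test. TIMP3 lies farthest to the right at 0.49, and MMP15, MMP8 and MMP9 lie left of 0 at -0.42, -0.36 and -0.62.

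Enzyme and inhibitor transcripts were also compared within each library. The log2 ratio of TIMP3 to MMP14 was 0.20 ± 0.0543 in vitamin C wells and -0.06 ± 0.0713 in control wells (SD, n = 3 wells each), a difference of 0.25 with no overlap (exact permutation p = 0.1, two-sided, the smallest possible). The log2 ratio of MMP14 to TIMP2 was 1.10 ± 0.132 in vitamin C wells and 0.91 ± 0.136 in control wells, and that of MMP2 to TIMP2 was -1.37 ± 0.103 in vitamin C wells and -1.56 ± 0.142 in control wells (SD, n = 3 wells each). Both overlapped between groups, with differences of 0.18 and 0.19 (exact permutation p = 0.2 each, two-sided). MMP16 and MMP14 differed less in their change, since their log2 ratio was 0.44 ± 0.127 in vitamin C wells and 0.50 ± 0.111 in control wells (difference -0.06, exact permutation p = 0.6, two-sided, n = 3 wells each). A p above the threshold does not show that their changes were equal.

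**Figure D4:**
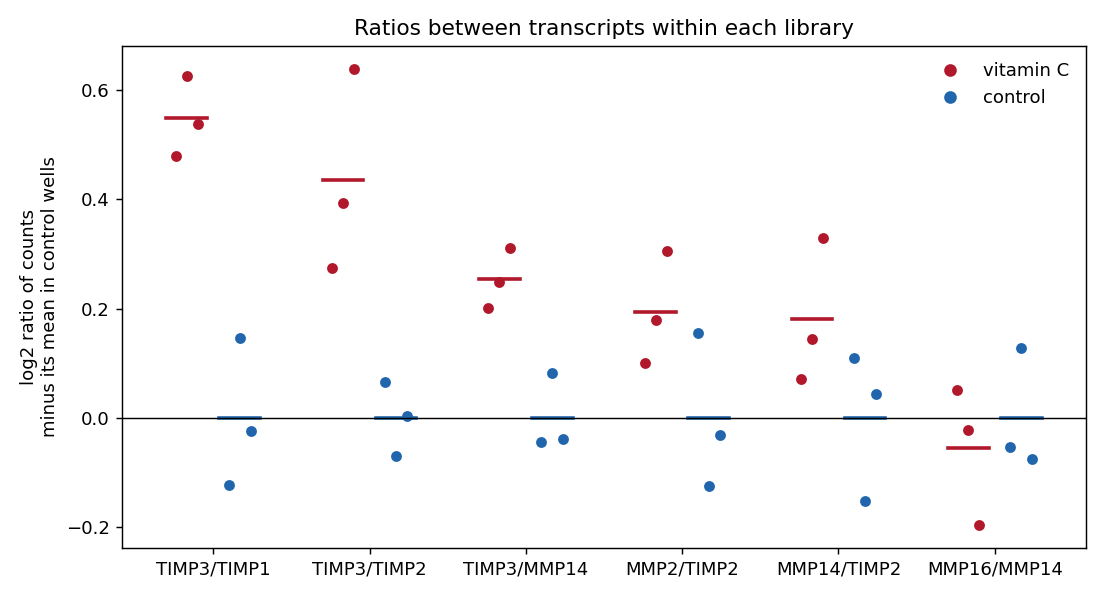
Log2 ratio of counts of 6 pairs of transcripts in each library, minus the mean of the control wells (y axis). Points are libraries and lines the mean of 3, vitamin C in red at the left and control in blue at the right of each pair. The groups lie apart for the 3 ratios with TIMP3, at mean differences of 0.55, 0.44 and 0.25, and overlap for the other 3.

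The rest of the TIMP and MMP family was mostly silent. Of 19 other family genes, 15 had too few counts to test, among them TIMP4, the fourth TIMP, with 1, 0 and 0 counts in vitamin C wells and 4, 2 and 1 counts in control wells. Of the 4 that were tested, 0 rose and 2 fell, against 5.09% lower among all genes tested, and the firmer call was MMP8. MMP8, the collagenase best known from neutrophils, was at 155, 154 and 158 CPM in vitamin C wells, against 209.8, 194 and 197 CPM in control wells. Of the leukocyte markers, LYZ was also lower (5.75 CPM in vitamin C wells and 8.10 CPM in control wells), while CD163 had 21 counts over vitamin C wells and 3 over control wells, and the part of these markers in this result was not tested. The MMP8 groups lay apart, with a log2 fold change of -0.36 ± 0.0463 (SE, edgeR adjusted p = 2.2e-04). The gelatinase MMP9 was at 1.80, 2.13 and 2.39 CPM in vitamin C wells, against 3.53, 3.02 and 3.03 CPM in control wells, a log2 fold change of -0.62 ± 0.176 (SE, edgeR adjusted p = 0.038). MMP9 was called in 8 of 15 alternatives, was lost in DESeq2 (adjusted p = 0.079) and with the replicate number as a block (0.051), and was lost when any library other than vitamin C replicate 3 was left out (edgeR adjusted p of 0.074 to 0.16). MMP13 and MMP12 had log2 fold changes of -0.45 and -0.36 and did not pass the test (edgeR adjusted p = 0.24 and 0.50).

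MMP1 and MMP8 lie in a run of 9 metalloproteinase genes on chromosome 11, all on the minus strand within 435 kb (GRCh38, 102520508 to 102955734). This run was chosen for description after its values were seen. Per kb of exon, MMP1 and MMP8 stood at 1429 and 45.3 CPM in vitamin C wells and at 1319 and 58.2 CPM in control wells. MMP10, which lies between them, had 20 counts over the vitamin C wells and 18 over the control wells. MMP3, on the other side of MMP1, had 5 counts over the vitamin C wells and 3 over the control wells. MMP7, MMP20 and MMP27 had at most 9 counts over the 3 wells of a group. MMP12 and MMP13, at the far end, stood at 0.409 and 0.407 CPM per kb in vitamin C wells and at 0.508 and 0.548 CPM per kb in control wells. The 2 highest collagenase genes of the run thus differed in their change: MMP8 fell, and MMP1 had a log2 fold change of 0.12 that did not pass the test. MMP13, also a collagenase, was low, at 1.154 CPM in vitamin C wells and 1.555 CPM in control wells. Its log2 fold change of -0.45 did not pass the test (edgeR adjusted p = 0.24).

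**Figure D5:**
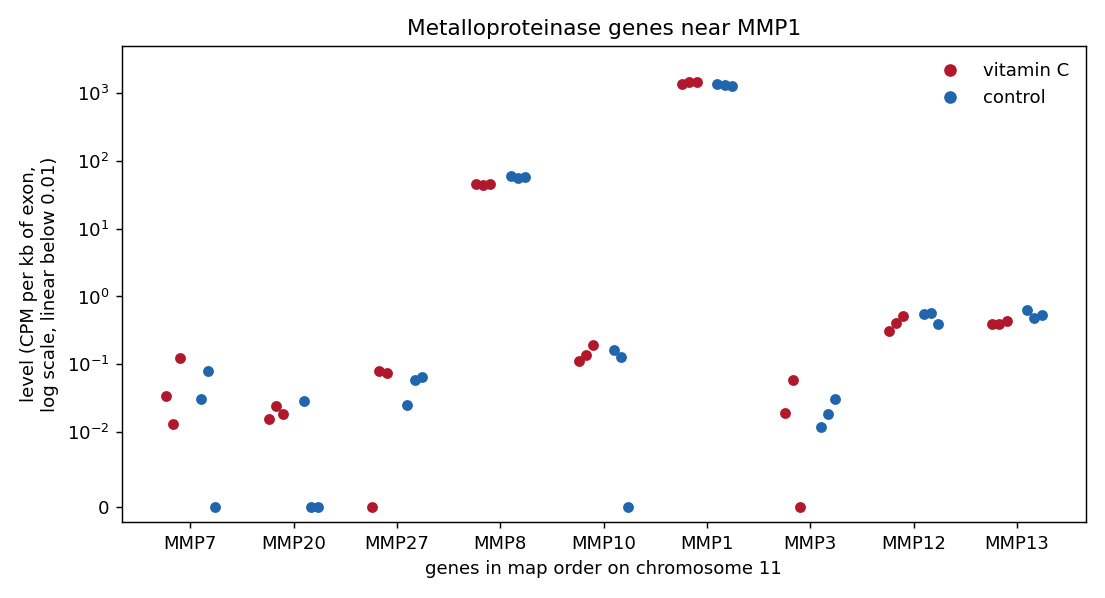
Length-scaled levels (CPM per kb of exon, log scale that is linear below 0.01) of the 9 metalloproteinase genes near MMP1 in their order along chromosome 11. Each point is 1 library, vitamin C in red at the left and control in blue at the right of each gene. MMP1 and MMP8 lie above 40 in all libraries and the other 7 genes below 1.

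Among genes whose proteins activate metalloproteinase precursors directly or indirectly, PLAT, the tissue plasminogen activator and an indirect one, fell. It was at 119, 121 and 119 CPM in vitamin C wells, against 175, 160.4 and 167 CPM in control wells, a log2 fold change of -0.48 ± 0.0474 (SE, edgeR adjusted p = 2.5e-05). Of the 10 genes in this list, 5 were tested, 0 rose and 1 fell (11.2% of all genes tested were called), with a median log2 fold change of -0.28, too few to read as a result about the list. FURIN, the convertase that processes membrane-type metalloproteinases, averaged 39.7 ± 1.69 CPM in vitamin C wells and 42.4 ± 2.42 CPM in control wells (SD, n = 3 wells each; log2 fold change -0.10, edgeR adjusted p = 0.37). PCSK5, PCSK6 and PCSK7, further convertases, had log2 fold changes of -0.55, -0.28 and 0.16 (edgeR adjusted p = 0.09, 0.62 and 0.12).

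TIMP3 also inhibits some metalloproteinases outside the MMP family. A list of 15 candidate targets was used, and inhibition by TIMP3 is not established for ADAM8 and ADAM9 among them. Of the 9 tested, 3 rose, ADAM9 among them, and 0 fell (median log2 fold change 0.03), against 6.09% higher among all genes tested. ADAM12, a membrane disintegrin protease, averaged 9.78 ± 0.721 CPM in vitamin C wells and 4.89 ± 0.405 CPM in control wells (SD, n = 3 wells each), which on the log2 scale was a rise of 0.99 ± 0.112 (SE, edgeR adjusted p = 9e-05). The aggrecanase ADAMTS4 averaged 49.1 ± 3.94 CPM in vitamin C wells and 33.2 ± 0.451 CPM in control wells (SD, n = 3 wells each), which on the log2 scale was a rise of 0.56 (edgeR adjusted p = 1.2e-04). ADAM9 rose with 0.21 (edgeR adjusted p = 0.043), a call lost with upper quartile scaling (0.065) and without control replicate 1, 2 or 3 (0.11, 0.12 and 0.14), over a range of 0.0024 to 0.14. ADAM17, the shedding protease of TNF, and ADAM10 were named after their values were seen, with log2 fold changes of 0.01 and 0.03 (edgeR adjusted p = 0.96 and 0.78). ADAM19, ADAMTS1 and ADAM8 did not pass the test (0.07, -0.10 and -0.29).

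Of 20 binding partners and receptors of TIMPs and MMPs, 19 were tested, of which 4 rose and 4 fell (8 of 19, against 11.2% of all genes tested), with a median log2 fold change of -0.01. KDR, the VEGF receptor to which TIMP3 binds, was at 11.8, 11.7 and 12.5 CPM in vitamin C wells, against 6.51, 6.22 and 7.06 CPM in control wells, a log2 fold change of 0.87 ± 0.0957 (SE, edgeR adjusted p = 7e-05). EFEMP1, a fibulin that binds TIMP3, was at 36.6, 37.0 and 39.1 CPM in vitamin C wells, against 57.5, 50.1 and 51.1 CPM in control wells, a log2 fold change of -0.50 ± 0.0663 (SE, edgeR adjusted p = 2.9e-04). KDR and EFEMP1 thus moved in opposite directions. ITGB3, the integrin subunit beta 3, rose with 0.31 (edgeR adjusted p = 0.0043), and CD63, a tetraspanin that binds TIMP1, rose with 0.27 (0.024). THBS2, a thrombospondin that binds MMP2, and the endocytic receptor LRP2 fell with -0.17 and -0.64 (edgeR adjusted p = 0.032 and 0.023). CD82, a tetraspanin, and BSG, an inducer of MMPs, were also called, at 0.60 and -0.24 (edgeR adjusted p = 0.044 and 0.045). Both were named after their values were seen, and CD82 was low, at 4.42 CPM in vitamin C wells and 2.84 CPM in control wells. PECAM1, itself counted among the endothelial markers whose sum was higher in vitamin C wells, stood at 3.39 CPM in vitamin C wells and 1.11 CPM in control wells, and the part of these markers in the value of KDR was not tested. The calls of CD63 and THBS2 were lost without control replicate 1, 2 or 3 (adjusted p of 0.078 to 0.084 and of 0.095 to 0.12), and that of LRP2 without vitamin C replicate 1 or 2 or control replicate 1 or 2 (0.061 to 0.12). The list had 3 called genes without control replicate 2, 4 without control replicate 1, and 5 without control replicate 3, vitamin C replicate 1 or vitamin C replicate 2. With upper quartile scaling, library size alone or limma-voom it had 7.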

How the data were processed

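RNA-seq was performed by the authors on 3 vitamin C wells and 3 control wells of A2058 cells. The deposited values are raw counts per gene that the authors obtained with STAR and HTSeq (paired-end sequencing, ribosomal RNA removed). Their paper names GENCODE 19, while hg38, STAR, Trim Galore and CASAVA 1.4 appear in the submitters' processing notes. No source used here says whether counting used the strand, and without it a gene and its antisense partner cannot be separated. Counts in the 6 per-sample tables equal those in the series table. Replicates differed by more than sampling noise (lowest chi-square over its degrees of freedom 2.75), so each counted as 1 sample. They are wells of a single line, so p-values set the group difference against the spread between wells. Other lines are not covered by them.

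Counts were analysed in R 4.3.3 with edgeR 4.0.16 (filterByExpr, TMM, quasi-likelihood test, vitamin C over control, no other term), with Benjamini-Hochberg adjustment over 16353 genes. Standard errors were taken from the F statistic. CPM used TMM-scaled library sizes. Log ratios used a prior count of 0.5 and exact permutation tests. GENCODE 29 (GRCh38; 57055 of 60675 identifiers matched) gave symbols, coordinates and exon lengths. RefSeq gave promoters. Alternatives were RLE, upper quartile and library size scaling, other filters, DESeq2 1.42.0, limma-voom 3.58.1, the likelihood ratio test, a replicate block, thresholds of 0.01 and 0.1, and each library left out. The fits were tested on simulated data.

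The members and lists were chosen with earlier results of these data known. Genes named are the 10 members, the other TIMP and MMP family genes, up to 6 genes with the smallest p of each list other than markers, genes overlapping a member, and the 3 genes most correlated with TIMP3. Others are marked.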

Additional observations from a re-analysis of the deposited data

How the results depend on the processing

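The count of members called kept its 4 rises and 1 fall under every scaling, filter and test tried on all 6 libraries. These scalings moved the median log2 fold change of all genes by at most 0.01, but turned the balance of all calls to 892 higher and 963 lower with upper quartile scaling, against 1101 and 752 with library size alone. At an adjusted p under 0.01, 795 genes were called (473 higher and 322 lower), among them 3 members (2 higher), and at 0.1 there were 2763 genes (1331 lower) and 6 members. With each library left out in turn, 964 to 2095 genes were called (549 to 1184 higher and 411 to 911 lower), among them 2 to 5 members (1 to 4 higher and 1 lower). TIMP3, MMP15 and MMP8 were called each time. The difference between groups in the log2 ratio of MMP16 to MMP14 ran from -0.11 to 0.0145 and changed sign without vitamin C replicate 3 or control replicate 2. Among genes not called, signs changed with a library left out for TIMP1 (-0.14 to 0.0046), MMP17 (-0.0121 to 0.14), WTAPP1 (-0.0265 to 0.52), AC090578.1, an antisense gene in MMP16 (-0.49 to 0.0718), and CEP295NL (-0.43 to 0.61). CEP295NL was also at 0.009 with library size alone, 0.0017 without a filter, 0.0109 with at least 10 counts in every library and 0.23 with limma-voom. With the replicate number as a block, 1913 genes were called and 5 members, CEP295NL was at 0.0026, and the call of MMP9 was lost (adjusted p = 0.051). Deviations of same-numbered wells correlated at 0.12, -0.02 and 0.09, and those of differently numbered wells at -0.18 to 0.11. With 3 wells a group, these values cannot tell whether the numbers pair the wells. Ratio differences were the same under the block, with 3 pairs too few for a p under 0.25. The cause of these changes was not tested. Members at low depth, such as RECK and MMP15, rest on 140 to 788 counts a library.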

Other observations

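Among 22 tested transcription factors known to act on MMP and TIMP genes, 3 rose and 0 fell (23 listed, median log2 fold change 0.08), a share near the 11.2% called among all genes tested. SNAI2, a repressor of epithelial genes, was at 22.1, 19.7 and 21.7 CPM in vitamin C wells, against 13.4, 12.99 and 12.9 CPM in control wells, a log2 fold change of 0.69 ± 0.0777 (SE, edgeR adjusted p = 8.8e-05). TWIST1, a factor of the same program, was at 39.1, 40.1 and 46.2 CPM in vitamin C wells, against 27.9, 30.3 and 33.5 CPM in control wells, a log2 fold change of 0.46 (edgeR adjusted p = 0.0026). SNAI1, in the same list and named after its values were seen, was low, at 1.38 CPM in vitamin C wells and 1.30 CPM in control wells. Its log2 fold change of 0.08 did not pass the test (edgeR adjusted p = 0.88). ETV1, an ETS factor, rose with 0.30 (edgeR adjusted p = 8.2e-04). The list had 5 called genes without vitamin C replicate 1 and 5 without vitamin C replicate 3. The AP-1 members JUNB and FOSL2 and the factor ETS1 did not pass the test, at 0.30, 0.27 and 0.16 (edgeR adjusted p = 0.075, 0.076 and 0.079), and were called when a single vitamin C replicate was left out (replicate 1 for JUNB and FOSL2, at 0.049 and 0.035, and replicate 2 for ETS1, at 0.043, over ranges of 0.049 to 0.22, 0.035 to 0.26 and 0.043 to 0.21).

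Of 12794 genes averaging 1 CPM or more, the 3 whose log2 CPM followed that of TIMP3 most closely over the 6 libraries were CTHRC1, GNPAT and BST1 (Pearson r of 0.999, 0.998 and 0.998, a description over libraries that share the group difference). CTHRC1, a secreted collagen triple helix repeat protein, was at 78.2, 86.6 and 91.5 CPM in vitamin C wells, against 61.2, 60.1 and 60.1 CPM in control wells. Like TIMP3, it was lowest in replicate 1 and highest in replicate 3 of the vitamin C wells. CTHRC1 was picked for its correlation over these same libraries, so this shared order is no separate finding.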
